A study of Mus musculus with 18 samples.

Results

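The data describe 10 mouse genes that encode carriers of sugars, peptides and amino acids in the intestinal epithelium: Slc5a1, Slc2a2, Slc15a1, Slc6a19, Slc6a20a, Slc7a9, Slc3a1, Slc7a7, Slc7a8 and Slc3a2. They were chosen by gene symbol in the annotation of the array's probes. Of the 10 genes, 9 had at least 1 probe, 15 probes in all, out of 16593 genes and 25697 probes on the array. No probe carried the symbol Slc3a1, so that gene was not analysed here. Slc2a2 and Slc7a9 had 3 probes each, Slc7a7 and Slc7a8 had 2 each, and the other 5 genes had 1 each.

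RNA of 3 tissues was hybridised to 18 Illumina bead arrays: duodenum, stomach and submandibular gland of Car6-/- mice and of wild-type mice, with 3 arrays for each of the 6 groups. All mice were C57BL/6 females aged 2 months. The Car6-/- mice lack carbonic anhydrase VI, the secreted isoform of the enzyme that is made in salivary glands, and carried no other named allele or treatment. The labels do not say how the allele was made, or which arrays of different tissues came from the same animal.

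Digested food is taken up by enterocytes, the absorptive cells of the villi, in consecutive steps across the luminal (apical) and the blood-facing (basolateral) membrane. At the apical membrane, sodium drives the uptake of glucose and neutral amino acids, protons drive that of short peptides, and an exchanger brings in cystine and basic amino acids. Basolateral carriers then release glucose by facilitated diffusion and amino acids by exchange. Several of the amino acid carriers work only as a pair of a light chain, which carries the substrate, and a heavy chain, which brings the pair to the membrane. The duodenum is the first segment of the small intestine in which these carriers act.

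The gene starts of 4 of the carriers are shown as examples of how these genes were distributed over the tissues. The pattern of Slc6a19 and Slc7a7, detected in duodenum and stomach but not in submandibular gland, is not among them. Slc5a1 was detected in duodenum and submandibular gland, Slc2a2 and Slc7a9 in duodenum alone, and Slc7a8 in all 3 tissues. Each window holds 250 bases before and 50 after a gene start, 5′ to 3′ on the gene's strand, from RefSeq on GRCm38.p6, which held windows for all 10 genes; the first of the 2 Slc7a9 windows is shown. Capitals mark matches to 4 motifs searched on both strands.
Slc5a1, chr5:33103969-33104268, plus strand: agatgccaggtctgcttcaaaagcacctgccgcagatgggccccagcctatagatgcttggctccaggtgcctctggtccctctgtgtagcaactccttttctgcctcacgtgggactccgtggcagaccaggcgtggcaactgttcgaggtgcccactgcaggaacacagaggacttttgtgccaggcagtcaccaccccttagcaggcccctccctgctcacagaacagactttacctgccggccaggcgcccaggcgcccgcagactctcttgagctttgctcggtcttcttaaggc
Slc2a2, chr3:28697653-28697952, plus strand: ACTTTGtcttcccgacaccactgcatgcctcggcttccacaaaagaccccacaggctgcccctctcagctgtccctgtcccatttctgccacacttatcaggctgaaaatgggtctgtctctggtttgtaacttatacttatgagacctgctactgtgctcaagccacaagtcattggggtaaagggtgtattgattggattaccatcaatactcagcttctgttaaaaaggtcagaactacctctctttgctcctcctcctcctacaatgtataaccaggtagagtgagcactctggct
Slc7a9, chr7:35448842-35449141, plus strand: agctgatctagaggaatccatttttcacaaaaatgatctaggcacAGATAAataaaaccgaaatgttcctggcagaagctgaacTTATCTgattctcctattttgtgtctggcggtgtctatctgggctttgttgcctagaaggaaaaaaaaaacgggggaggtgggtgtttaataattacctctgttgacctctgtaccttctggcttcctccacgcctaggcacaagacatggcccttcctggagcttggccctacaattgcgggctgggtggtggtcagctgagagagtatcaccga
Slc7a8, chr14:54781837-54782136, minus strand: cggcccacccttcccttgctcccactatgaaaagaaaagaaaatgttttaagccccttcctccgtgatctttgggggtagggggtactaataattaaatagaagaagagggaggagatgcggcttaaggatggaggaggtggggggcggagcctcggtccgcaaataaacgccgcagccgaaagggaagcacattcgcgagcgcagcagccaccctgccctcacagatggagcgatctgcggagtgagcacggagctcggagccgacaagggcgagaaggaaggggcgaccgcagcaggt

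For the factor HNF1 the letters searched were GTTAAT, and for the factor HNF4 they were CAAAGT. For the GATA factors the search used the motif spelled AGATAA. For the element that places the start of transcription in some promoters, the TATA box, it used the letters TATAAA. HNF1, HNF4 and the GATA factors are regulators of genes of the intestinal epithelium. The Slc7a9 window held 2 GATA matches, at 205 and 166 bases before the start. The Slc2a2 window held an HNF4 match at its first base. The Slc5a1 and Slc7a8 windows held none of the 4 motifs. In the Slc3a1 window the GATA match shared a base with a TATA match.

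Over all windows of the 10 genes, an HNF4 match occurred for 4 genes, against 14.4% of all windows. A GATA match occurred for 3 genes, against 11.2% of all 32851 windows, and the HNF1 site for 3 genes, against 7.1%. A TATA match occurred for Slc3a1 alone, against 13.6% of all windows. Some genes have several windows, so the share of windows and the count of genes are not on 1 scale. The Slc7a8 window held 20 CpG dinucleotides and the Slc5a1 window 10, while Slc7a9 had 6 and Slc2a2 had 2, beside a median of 7 over all windows. A match of letters is a description of the sequence, and no binding was measured.

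The arrays were set against their labels first. Signals are given as deposited, in arbitrary units of fluorescence without background subtraction, for replicates 1, 2 and 3 in turn. A probe is called detected where the deposited detection p-value was under 0.01. An array detected 9648 to 11808 probes for duodenum, 10214 to 11441 for stomach and 7868 to 9613 for submandibular gland. Car6 had signals of 63.6, 55.1 and 51.0 in Car6-/- submandibular glands, not detected on any array, against 114, 106 and 158 in wild-type glands, detected on all 3. It was at least 1.58-fold lower in Car6-/- glands (adjusted p = 0.0043, limma) and was not detected in stomach or duodenum of either genotype.

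Markers of other cell types were present on the duodenal arrays. Gastric epithelial markers had a summed signal of 36332 to 122833 in Car6-/- duodenum, with 7 to 9 of 12 genes detected, and of 152588 to 177078 in wild-type duodenum, with 9 to 11 detected. In the stomach all 12 were detected, with sums of 196027 to 266277 in Car6-/- and 194076 to 252940 in wild-type mice. The duodenal arrays of both genotypes thus carried signal of this list, least of all in Car6-/- replicate 3. Its genes went different ways, with 3 higher and 9 lower in duodenum than in stomach in each genotype. In Car6-/- mice those higher were Gkn3 (mean signal 23828 against 2099), Muc6 (1541 against 314) and Tff2 (22941 against 18440). Atp4a and Atp4b were not detected in Car6-/- duodenum. All 15 pancreatic acinar markers were detected on every duodenal array, with sums of 401753 to 500748 in Car6-/- and 346694 to 529780 in wild-type mice. Stomach arrays detected 9 to 10 of these 15 in Car6-/- mice, with sums of 66929 to 84562. In wild-type stomach 9 to 15 were detected, with sums of 70332 to 194573. Enterocyte markers, with 9 of 11 detected in each duodenum, summed to 53985 to 109787 in Car6-/- and 15915 to 59490 in wild-type duodenum. In the stomach 5 or 6 of these 11 enterocyte markers were detected, and in the submandibular gland 1. In whole tissue, fewer cells of a type and less RNA per cell cannot be told apart.

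**Figure D1:**
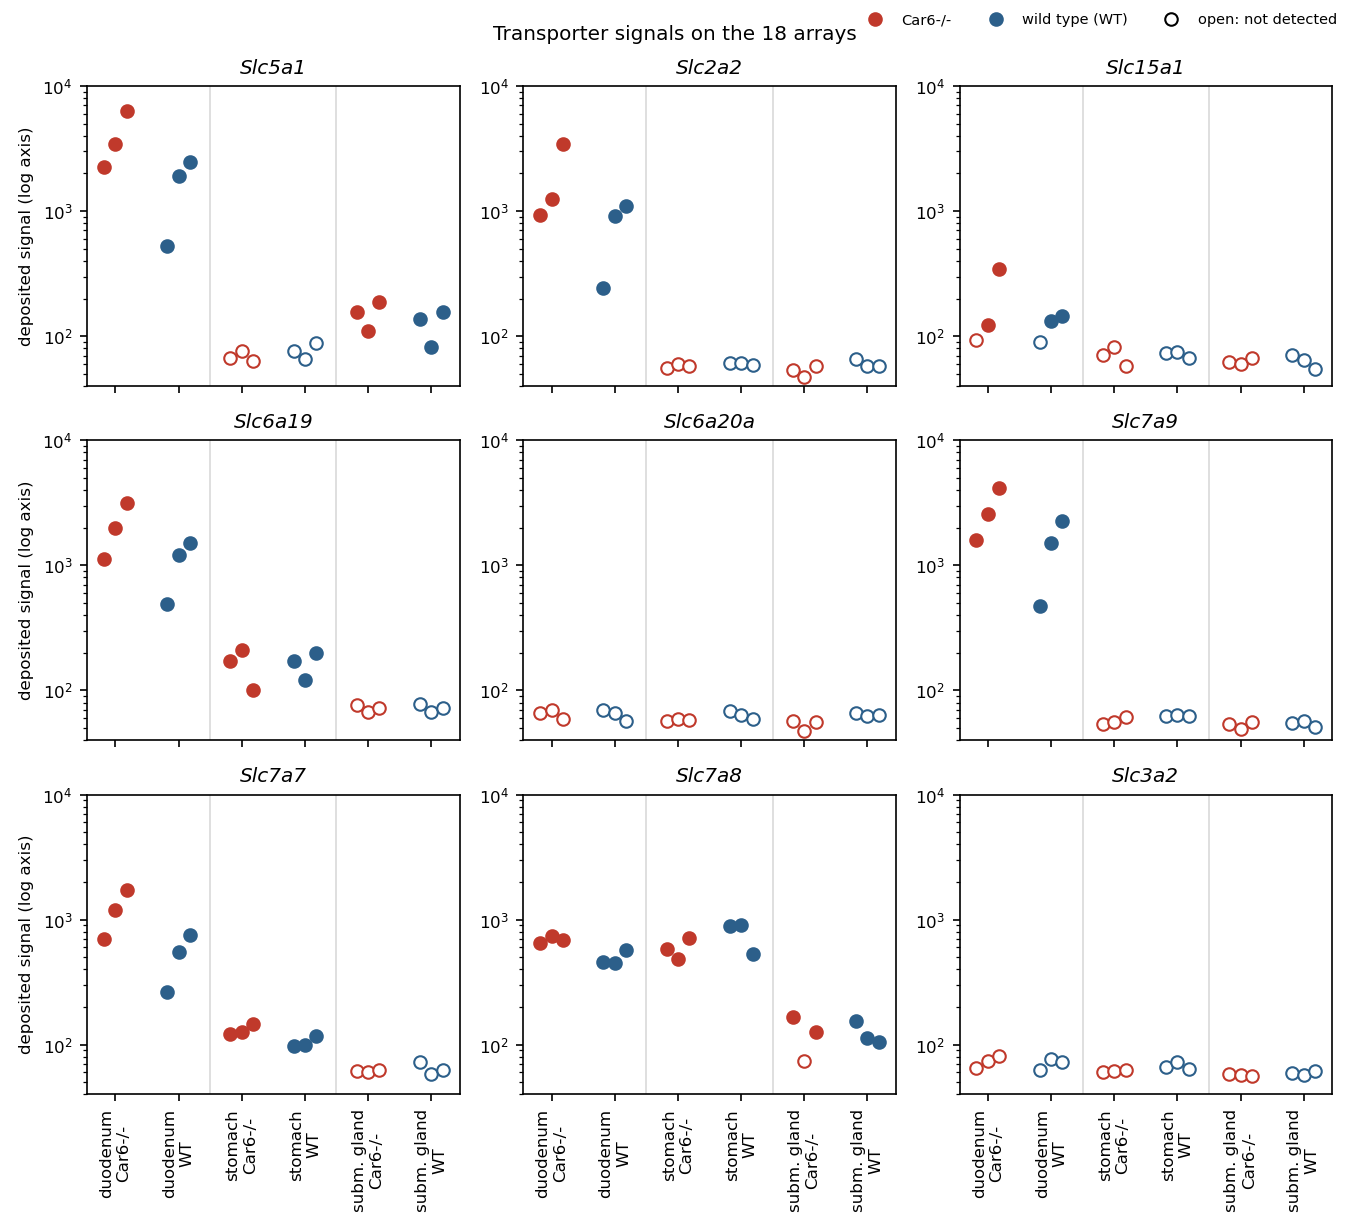
Deposited signal (log axis, arbitrary units) of each transporter gene with a probe, by tissue and genotype, 1 point per array; filled points were detected and open points were not. Slc5a1, Slc2a2, Slc6a19, Slc7a9 and Slc7a7 stood highest on the duodenal arrays, and Slc6a20a and Slc3a2 were detected on none of the 18 arrays.

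Slc5a1 encodes SGLT1, the sodium-coupled carrier that takes glucose and galactose up across the apical membrane. Its signals were 2240, 3419 and 6262 in Car6-/- duodenum, against 524, 1917 and 2451 in wild-type duodenum. Each Car6-/- array lay above every wild-type array once normalised, and the lowest deposited signal came from wild-type replicate 1. In the stomach it was not detected on any of the 6 arrays, with signals of 63.5 to 76.8 in Car6-/- and 66.1 to 88.5 in wild-type mice. In the submandibular gland it was detected on all 6 arrays, with 155, 109 and 186 in Car6-/- and 138, 81.5 and 156 in wild-type glands. Slc5a1 was therefore measured in 2 of the 3 tissues, and its genotype groups overlapped in the gland.

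Slc2a2 encodes GLUT2, the facilitative carrier through which glucose and fructose leave the enterocyte on the basolateral side. Its brightest probe gave 933, 1238 and 3433 in Car6-/- duodenum, against 243, 911 and 1095 in wild-type duodenum. The groups overlapped, since Car6-/- replicate 1 lay below wild-type replicate 3. The second probe gave 416, 670 and 1082 in Car6-/- and 111, 317 and 323 in wild-type duodenum. The third gave 251, 492 and 647 in Car6-/- duodenum, against 91.1, 272 and 266 in wild-type duodenum, where replicate 1 was not detected. In all 3 probes wild-type replicate 1 was lowest and Car6-/- replicate 3 highest. None of the 3 was detected on any stomach or submandibular array.

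Slc15a1 encodes PepT1, the proton-coupled apical carrier of dipeptides and tripeptides. Its signals were 92.7, 123 and 343 in Car6-/- duodenum, against 89.3, 131 and 146 in wild-type duodenum. Replicate 1 of each genotype was not detected, so 4 of the 6 duodenal arrays measured it. Car6-/- replicate 3 stood apart, and the other arrays of the genotypes overlapped. It was detected on no stomach or submandibular array.

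Slc6a19 encodes B0AT1, the sodium-coupled apical carrier of neutral amino acids. It had signals of 1129, 2000 and 3158 in Car6-/- duodenum, against 488, 1201 and 1520 in wild-type duodenum. The groups overlapped, with wild-type replicate 1 lowest and Car6-/- replicate 3 highest. It was also detected on all 6 stomach arrays, with 173, 211 and 101 in Car6-/- and 170, 120 and 198 in wild-type stomach, where neither genotype stood above the other. The 6 submandibular arrays did not detect it. Slc6a20a, an apical carrier of proline and other imino acids, was detected on none of the 18 arrays, with signals of 47.7 to 70.2. Whether its single probe reports the transcript was not tested, so its level was not measured.

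Slc7a9 encodes the light chain b0,+AT, which exchanges luminal cystine and basic amino acids for neutral ones and works with the heavy chain rBAT, the product of Slc3a1. Its brightest probe gave 1584, 2559 and 4133 in Car6-/- duodenum, against 471, 1514 and 2242 in wild-type duodenum. Wild-type replicate 1 was lowest and Car6-/- replicate 3 highest, and the groups overlapped. The second probe gave 1104, 1969 and 2464 in Car6-/- and 336, 917 and 1191 in wild-type duodenum. The third gave 141, 238 and 219 in Car6-/- duodenum, against 74.9, 132 and 143 in wild-type duodenum, where replicate 1 was not detected. As for Slc2a2, no probe of Slc7a9 was detected in stomach or submandibular gland.

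Slc7a7 and Slc7a8 encode y+LAT1 and LAT2, light chains of basolateral exchangers that release basic and neutral amino acids and pair with the heavy chain 4F2hc, the product of Slc3a2. The brighter Slc7a7 probe gave 694, 1197 and 1720 in Car6-/- duodenum, against 265, 553 and 751 in wild-type duodenum. Its normalised values did not overlap between the genotypes in duodenum. The other Slc7a7 probe gave 553, 992 and 1517 in Car6-/- and 221, 450 and 603 in wild-type duodenum. In the stomach the brighter probe was detected on all 6 arrays, with 121, 127 and 147 in Car6-/- and 98.5, 98.5 and 116 in wild-type mice. There the genotypes were separate for this probe but overlapped for the other one, which gave 109, 117 and 156 in Car6-/- and 112, 102 and 107 in wild-type stomach. Neither probe was detected in the submandibular gland.

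The brighter Slc7a8 probe gave 652, 740 and 682 in Car6-/- duodenum, against 457, 446 and 567 in wild-type duodenum. These deposited signals were separate, but the normalised log2 values were 9.43, 9.25 and 8.86 in Car6-/- and 9.45, 8.56 and 9.01 in wild-type duodenum, and overlapped. In stomach the same probe gave 583, 483 and 713 in Car6-/- and 882, 898 and 530 in wild-type mice. In the submandibular gland it gave 165, 73.5 and 127 in Car6-/- glands, where replicate 2 was not detected, and 154, 114 and 105 in wild-type glands. The other Slc7a8 probe was detected on all duodenal and stomach arrays but on none of the 6 submandibular arrays. It gave 216, 183 and 255 in Car6-/- duodenum, against 177, 160 and 172 in wild-type duodenum, and its normalised values overlapped too. In stomach it gave 225, 181 and 254 in Car6-/- and 312, 253 and 173 in wild-type mice. Slc3a2, the heavy chain of both exchangers, was not detected on any of the 18 arrays by its single probe, with signals of 56.5 to 81.8. Whether that probe reports the transcript was not tested, so the level of the heavy chain was not measured in any of the 6 groups.

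The duodenum was then set against the other tissues of the same genotype, as labelled. Differences between tissues are log2 values of a limma fit of all 18 arrays normalised together, with Benjamini-Hochberg adjustment over 9682 genes and a threshold of 0.05. Of the 7 genes that passed the detection filter, 6 rose in duodenum over stomach in Car6-/- mice and 6 in wild-type mice. Over all genes, 20.9% rose in Car6-/- mice and 13.6% in wild-type mice. All 7 rose in duodenum over submandibular gland in both genotypes, where 27.5% of all genes rose in Car6-/- mice and 26.7% in wild-type mice. The 3 genes that had passed through the duodenal arrays alone could only differ in this direction, so these counts describe the genes measured and not all 10. The filter passed Slc2a2, Slc7a9 and Slc15a1 in that way. Slc5a1 was detected on no stomach array, and Slc6a19 and Slc7a7 on no submandibular array, so there they too could only rise.

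Where no array of a group detected a gene, the fitted log2 value depends on how background was corrected, so only a minimum fold is given. For it the brighter group's mean was divided by that of the dimmer group, whose values were set no lower than the dimmest detected probe on each array. Quantile-normalised signals with no background correction were used for this. Slc5a1 was at least 27.9-fold higher in duodenum than in stomach in Car6-/- mice (adjusted p = 3.68e-10) and at least 14.2-fold higher in wild-type mice (adjusted p = 6.84e-09). Over the submandibular gland, which detected it, the log2 difference was 3.48 in Car6-/- and 2.88 in wild-type mice (SE 0.36), or 11.2-fold in Car6-/- and 7.34-fold in wild-type mice. The carrier was thus far above both other tissues. Slc7a9 was at least 19.6-fold higher in duodenum than in stomach in Car6-/- and at least 12.3-fold higher in wild-type mice. Over the submandibular gland Slc7a9 was at least 15.5-fold higher in Car6-/- and at least 8.90-fold higher in wild-type mice. Slc2a2 was at least 12.2-fold higher than in stomach in Car6-/- and at least 6.52-fold higher in wild-type mice, and over the submandibular gland at least 9.62-fold higher in Car6-/- and at least 4.72-fold higher in wild-type mice. The stomach and gland levels of Slc2a2 and Slc7a9 were not well above background. Their minimum folds are those of the brightest probe, and the dimmer probes of both genes differed less. The dimmest Slc7a9 probe had mean signals of 199 in Car6-/- and 117 in wild-type duodenum, against 66.3 in Car6-/- and 71.2 in wild-type stomach. The dimmest Slc2a2 probe had 463 in Car6-/- and 210 in wild-type duodenum, against 59.3 in Car6-/- and 65.6 in wild-type stomach.

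Slc6a19 differed from stomach by 3.95 log2 units in Car6-/- mice, or 15.5-fold (adjusted p = 1.07e-07), and by 3.22, or 9.32-fold, in wild-type mice (adjusted p = 2.03e-06, SE 0.34 in both). Slc7a7 differed by 3.49, or 11.3-fold, in Car6-/- and by 3.03, or 8.16-fold, in wild-type mice (SE 0.23). These genes were detected in stomach, so both folds were measured on both sides. Over the submandibular gland, Slc6a19 was at least 11.8-fold higher in Car6-/- and at least 7.33-fold higher in wild-type duodenum, and Slc7a7 at least 6.87-fold higher in Car6-/- and at least 3.64-fold higher in wild-type duodenum. Slc6a19 and Slc7a7, an apical and a basolateral carrier, thus rose over both tissues in both genotypes. Slc15a1 was at least 1.39-fold higher than in stomach in Car6-/- mice (adjusted p = 0.00275) and at least 1.27-fold in wild-type mice (adjusted p = 0.0130). Over the submandibular gland it was at least 1.10-fold higher in Car6-/- duodenum. In wild-type duodenum Slc15a1 did not exceed the bound set for the gland, so that call comes with no minimum fold. For Slc15a1 the wild-type calls were lost without wild-type duodenal replicate 3 (adjusted p = 0.0632 over stomach and 0.0563 over submandibular gland).

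Slc7a8 went another way. Its duodenal level differed from that of stomach by 0.041 log2 units in Car6-/- mice (SE 0.43, adjusted p = 0.948) and by -0.53 in wild-type mice (SE 0.43, adjusted p = 0.396). Neither difference passed the threshold. Over the submandibular gland it was 3.15-fold higher in Car6-/- duodenum (log2 difference 1.65, adjusted p = 0.00357) and 2.21-fold higher in wild-type duodenum (1.15, adjusted p = 0.0332). The wild-type call was lost without filtering dim probes (adjusted p = 0.0634), with array weights (0.0950), and without submandibular wild-type replicate 3 (0.144), duodenal wild-type replicate 1 (0.120) or duodenal wild-type replicate 3 (0.0701).

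The order of the tissues followed on the common log2 scale, as means ± SD over the 6 arrays of a tissue. Slc5a1 stood at 10.74 ± 0.83 in duodenum and 7.56 ± 0.51 in submandibular gland, with stomach below detection. Slc6a19 stood at 10.02 ± 0.54 in duodenum and 6.44 ± 0.57 in stomach, and Slc7a7 at 9.07 ± 0.64 in duodenum and 5.81 ± 0.30 in stomach, both with the submandibular gland below detection. In each of these genes neighbouring tissues were further apart than their spread. Slc7a8 stood at 8.72 ± 0.35 in duodenum and 8.96 ± 0.51 in stomach, which lay within their spread, and at 7.32 ± 0.74 in submandibular gland. The duodenal arrays carried the gastric marker signal given above, and both duodenal and stomach arrays carried the pancreatic one. The folds thus compare these samples as labelled, and the part of these signals in them was not tested.

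**Figure D2:**
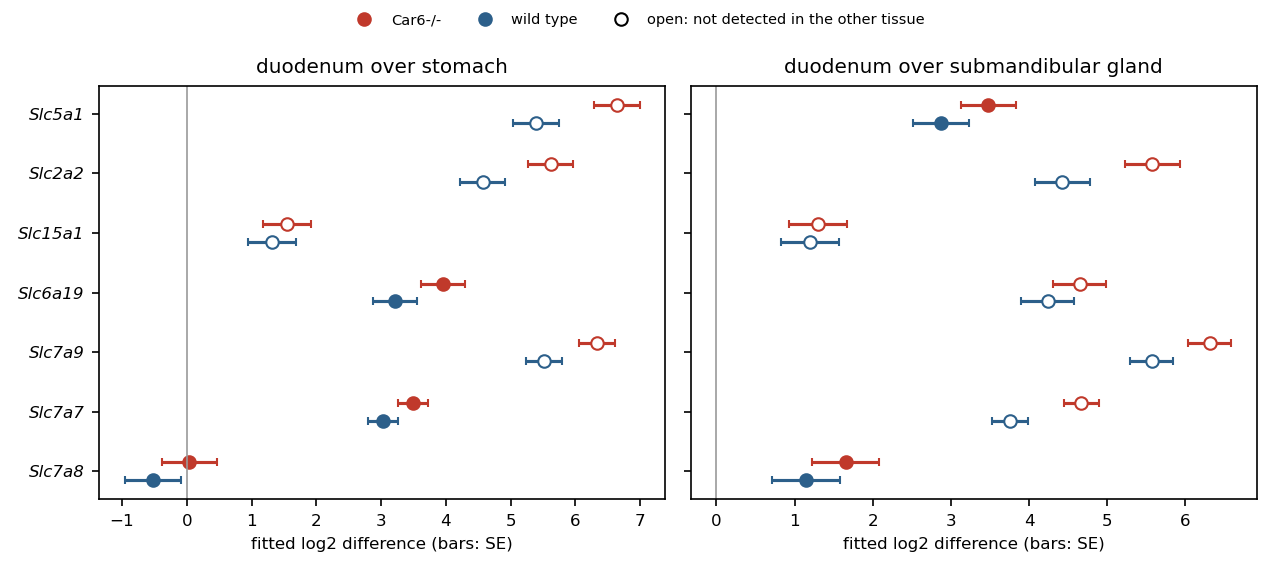
Fitted log2 difference of duodenum over stomach and over submandibular gland for the 7 transporter genes that passed the detection filter, Car6-/- in red above wild type in blue, with the standard error of the limma fit as bars. Open points mark genes that no array of the other tissue and genotype detected, whose fitted values are not measured folds. Slc7a8 alone has points near or below 0 over stomach, at 0.041 in Car6-/- and -0.53 in wild-type mice.

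The comparison the study was designed for is that of Car6-/- with wild-type mice within a tissue. In duodenum all 7 measured carriers had higher means in Car6-/- mice, but 0 of 7 passed the threshold, and the difference is thus given by its values. Over all 8523 genes tested, 0.0117% passed in either direction and 0 passed as higher. The median log2 difference of the 7 genes was 0.78, beside 0.018 over all genes. At an unadjusted p under 0.05, 2 of the 7 were higher, against 11.4% of all genes. The same 2, Slc5a1 and Slc7a7, had groups that did not overlap, which held for 15.8% of all genes in that direction.

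Slc5a1 differed by 1.09 log2 units between Car6-/- and wild-type duodenum (SE 0.41, unadjusted p = 0.0319, adjusted p = 0.185, limma). Slc7a7 differed by 0.95 (SE 0.28, unadjusted p = 0.0111, adjusted p = 0.143). Slc2a2 differed by 1.06 (SE 0.51, adjusted p = 0.261) and Slc7a9 by 0.78 (SE 0.40, adjusted p = 0.284). These 4 differences were positive, and none passed the adjusted threshold. The difference was 0.67 for Slc6a19 (SE 0.30, adjusted p = 0.233), 0.25 for Slc15a1 (SE 0.54, adjusted p = 0.805) and 0.18 for Slc7a8 (SE 0.26, adjusted p = 0.705). For these last 2 the error was larger than the difference.

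Probes of the same gene gave like values. The 3 Slc2a2 probes differed by 1.06, 1.55 and 1.27 log2 units, and the 3 Slc7a9 probes by 0.78, 0.98 and 1.09, each from the brightest to the dimmest. Those of Slc7a7 differed by 0.95 and 1.03, and those of Slc7a8 by 0.18 and 0.14. No probe passed the threshold over all 11022 probes tested. In a fit with the replicate number as a block, 3 of the 7 genes passed: Slc7a7 (adjusted p = 0.0237), Slc6a19 (0.0288) and Slc5a1 (0.0350), with 969 genes passing in all. The labels do not say that the numbers pair the mice. Slc7a7 also passed when all 18 arrays entered 1 fit (adjusted p = 0.0249) and with array weights (0.0412).

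**Figure D3:**
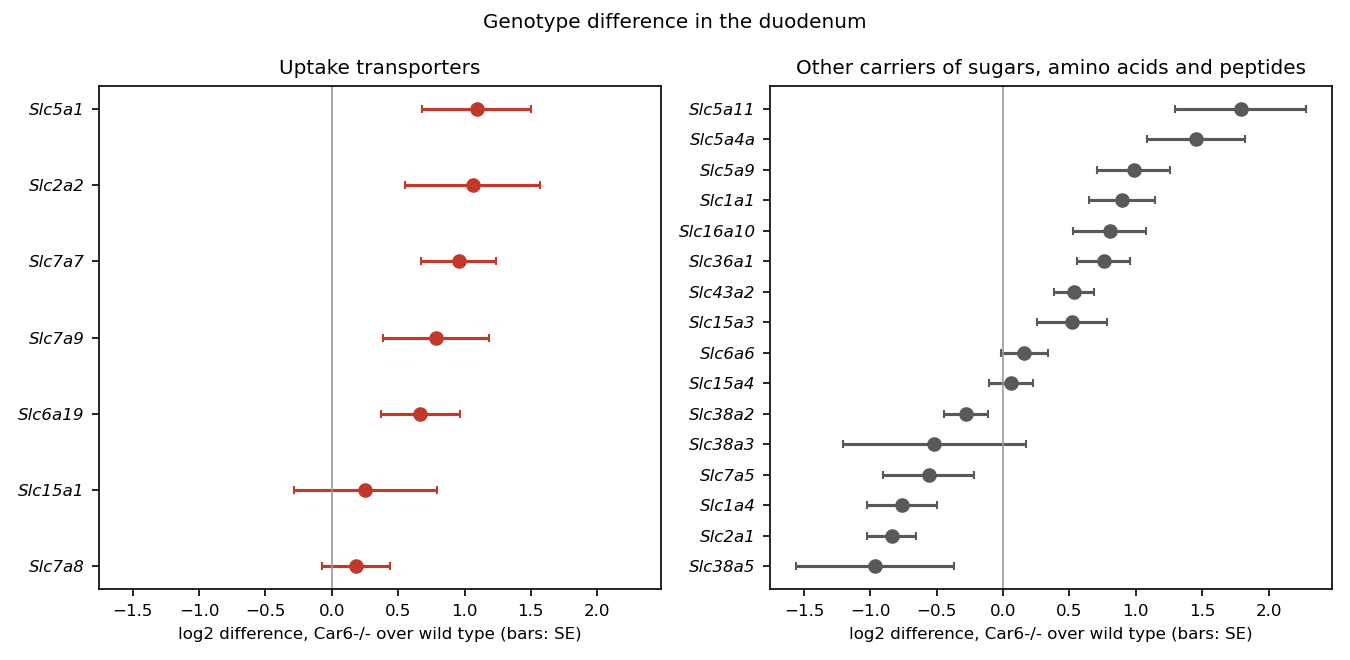
Log2 difference of Car6-/- over wild-type duodenum for the 7 measured transporter genes and for the 16 other carriers tested, with the standard error of the limma fit as bars. The transporters run from 0.18 for Slc7a8 to 1.09 for Slc5a1, the other carriers lie on both sides of 0, and none passed the adjusted threshold.

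The duodenal arrays of 1 genotype also differed among themselves in these genes. The highest deposited signal exceeded the lowest 3.68-fold in Car6-/- and 4.51-fold in wild-type duodenum for Slc2a2, and 2.80-fold in Car6-/- and 4.67-fold in wild-type duodenum for Slc5a1. For Slc7a9 it was 2.61-fold in Car6-/- and 4.76-fold in wild-type duodenum, and for Slc7a8 only 1.13-fold in Car6-/- and 1.27-fold in wild-type duodenum. In normalised values, wild-type replicate 1 was the lowest array for 5 of the 7 genes and Car6-/- replicate 3 the highest for 6. Slc7a8 had its highest normalised value on wild-type replicate 1, the array on which 5 others were lowest. Slc15a1 was lowest on Car6-/- replicate 1, and its order of the arrays differed from that of each of the other 6 genes.

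The mean log2 level of 9 enterocyte markers was 11.94, 12.22 and 12.44 in Car6-/- duodenum, against 10.56, 11.50 and 11.75 in wild-type duodenum. Slc5a1 and Slc7a7 ranked the 6 arrays exactly as these markers did. All 9 markers had higher means in Car6-/- duodenum, with a median difference of 1.06, and 0 passed the threshold. At an unadjusted p under 0.05, 6 were higher, beside 11.4% of all genes in that direction. Gastric markers ran the other way, with mean levels of 13.27, 12.67 and 8.42 in Car6-/- and 13.83, 13.82 and 13.59 in wild-type duodenum. All 9 gastric markers tested had lower means in Car6-/- duodenum, with a median of -2.34, or -0.64 without Car6-/- replicate 3. Pancreatic acinar markers were alike, at 14.67, 14.51 and 14.64 in Car6-/- and 14.77, 14.40 and 14.78 in wild-type duodenum.

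Smooth muscle markers had means of 10.25, 9.91 and 9.67 in Car6-/- and 10.46, 10.38 and 10.65 in wild-type duodenum. Fibroblast markers had means of 7.95, 8.11 and 8.08 in Car6-/- and 8.56, 8.53 and 8.75 in wild-type duodenum. Genes of the interferon response had means of 8.89, 9.13 and 8.31 in Car6-/- and 6.68, 6.71 and 7.98 in wild-type duodenum. The means of these 3 lists did not overlap between the genotypes, and neither did those of the enterocyte and gastric markers. Of all single genes in duodenum, 15.8% did not overlap as higher and 13.9% as lower in Car6-/- mice. The part of these shifts in the differences of the carriers was not tested.

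Without wild-type replicate 1, the difference between Car6-/- and wild-type duodenum was 0.64 for Slc5a1, 0.74 for Slc7a7, 0.56 for Slc2a2, 0.42 for Slc6a19 and 0.36 for Slc7a9. Without Car6-/- replicate 3 it was 0.86 for Slc5a1, 0.78 for Slc7a7, 0.64 for Slc2a2, 0.59 for Slc7a9 and 0.46 for Slc6a19. Wild-type replicate 1 was lowest and Car6-/- replicate 3 highest for these 5 genes, so leaving out either was bound to make the difference smaller. Leaving out another array gave up to 1.41 for Slc5a1, 1.39 for Slc2a2, 1.19 for Slc7a7, 1.15 for Slc7a9 and 0.89 for Slc6a19. Without both arrays, a setting chosen after seeing the data, the difference was 0.57 for Slc7a7, 0.40 for Slc5a1, 0.22 for Slc6a19, 0.17 for Slc7a9 and 0.14 for Slc2a2. The median of the enterocyte markers was then 0.47. The 2 arrays stood at the ends for these 5 carriers and for the enterocyte markers, so the smaller differences without them were fixed in advance. Slc7a8 was then at 0.56 and Slc15a1 at -0.59, both further from 0 than with all 6 arrays, and 0 of the 7 carriers passed.

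**Figure D4:**
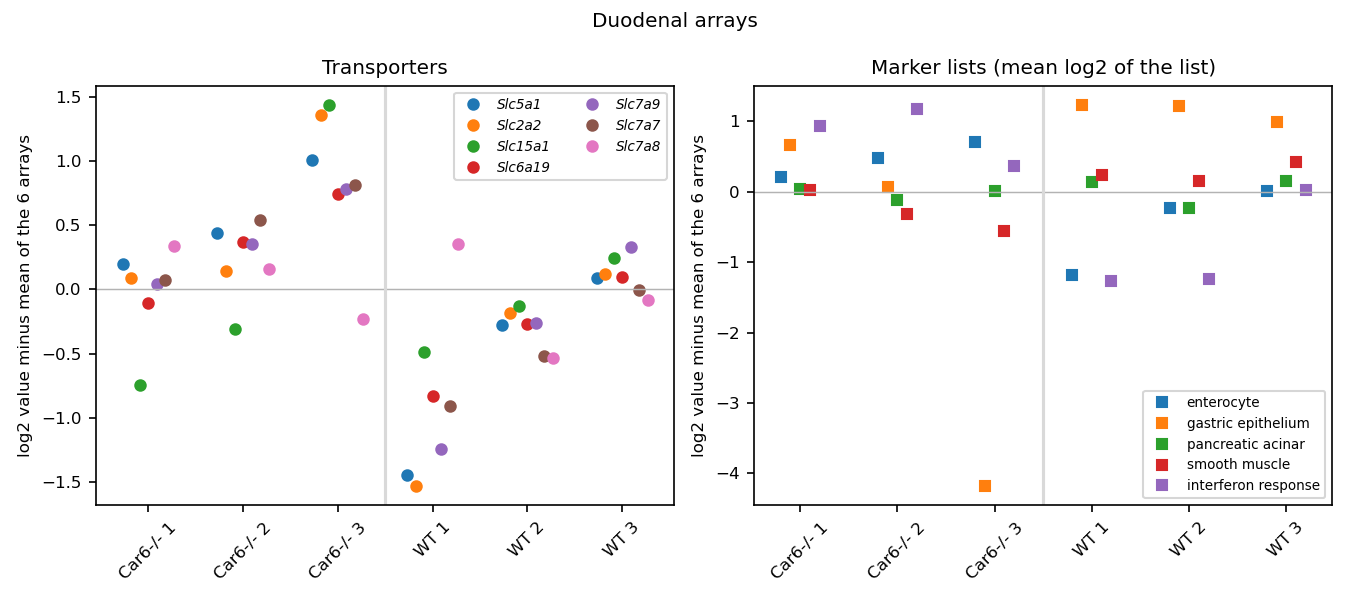
Normalised log2 values on each of the 6 duodenal arrays, as deviations from the mean over the 6 arrays, for the 7 measured transporter genes and for the means of 5 marker lists. Wild-type (WT) replicate 1 is lowest for 5 of the 7 genes and for the enterocyte markers, Car6-/- replicate 3 is highest for 6 of the 7 and lowest for the gastric markers, and Slc7a8 is highest on WT replicate 1.

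In stomach 3 carriers were measured and 0 passed, where 0% of 8556 genes passed. Slc7a7 differed by 0.54 log2 units between Car6-/- and wild-type stomach (SE 0.18, unadjusted p = 0.0183, adjusted p = 0.9999). Its groups did not overlap, as was the case for 3.17% of all genes in that direction. Slc7a8 differed by -0.39 (SE 0.34) and Slc6a19 by -0.080 (SE 0.43). In the submandibular gland 2 carriers were measured and 0 passed, where 0.099% of 7074 genes passed. Slc5a1 differed by 0.44 between Car6-/- and wild-type glands (SE 0.27, adjusted p = 0.602) and Slc7a8 by -0.27 (SE 0.42, adjusted p = 0.827). At an unadjusted p under 0.05, 1 of the 3 stomach carriers was higher, beside 1.2% of all genes, and 0 of the 2 in the gland, beside 5.57%. The gland, where Car6 itself was measured, thus gave no carrier past the threshold.

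Whether the difference between genotypes was itself larger in duodenum was tested as an interaction in the fit of 18 arrays. Set against stomach, 0 of 7 carriers passed, where 0.0207% of all genes passed. The largest was that of Slc5a1, at 1.24 log2 units (SE 0.50, adjusted p = 0.301). Set against the submandibular gland, 0 of 7 passed, where 0.207% of all genes passed, and Slc7a7 had the lowest adjusted p, at 0.185 (difference 0.91, SE 0.32). With array weights Slc7a7 passed there (adjusted p = 0.0436). At an unadjusted p under 0.05, 2 of 7 were higher in each interaction, beside 6.53% of all genes for stomach and 6.59% for the submandibular gland. In stomach only Slc6a19, Slc7a7 and Slc7a8 were detected, and in the submandibular gland only Slc5a1 and Slc7a8. For a carrier not detected in the other tissue, no genotype difference was measured there. Its interaction thus cannot tell a difference between tissues, as for Slc5a1 against stomach and Slc7a7 against the gland. A difference between tissues in the response of these carriers to the genotype was therefore not shown.

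The other carriers of sugars, amino acids and peptides formed a list of 32 genes, of which 28 were on the array and 16 were tested in duodenum. Between the genotypes 10 had higher and 6 lower means in Car6-/- mice, with a median of 0.34, and 0 passed, beside 0.0117% of all genes, while 9 had an unadjusted p under 0.05, beside 22.8%. Those with the smallest p were Slc2a1, which encodes the widely expressed glucose carrier GLUT1 (-0.84, SE 0.18, adjusted p = 0.128), and Slc5a4a, a relative of SGLT1 (1.45, SE 0.37, adjusted p = 0.130). They were followed by Slc36a1, a proton-coupled carrier of small amino acids (0.76, SE 0.20), and Slc1a1, the carrier of glutamate and aspartate (0.90, SE 0.25). The main glucose carriers of the enterocyte and GLUT1 hence had differences of opposite sign, with none past the threshold.

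In duodenum over stomach, 20 of these other carriers were tested. In Car6-/- mice 7 rose and 5 fell, beside 20.9% and 25.7% of all genes, and in wild-type mice 3 rose and 3 fell, beside 13.6% and 17.4%. Of those that rose in Car6-/- mice, Slc1a1, Slc5a4a, Slc5a11, Slc36a1, Slc16a10 and Slc43a2 were not detected in Car6-/- stomach, so they could only rise. Slc1a1 was at least 3.62-fold higher in Car6-/- and at least 2.36-fold higher in wild-type duodenum. Slc2a1 fell by 1.32 log2 units in Car6-/- (SE 0.16, adjusted p = 3.74e-06) and by 0.59 in wild-type mice (SE 0.16, adjusted p = 0.00810). Slc5a4a was at least 1.93-fold higher in Car6-/- and at least 1.13-fold higher in wild-type duodenum, and Slc7a11, the cystine and glutamate exchanger, fell in both genotypes. In Car6-/- mice 1 stomach array and no duodenal array detected Slc7a11, and it was at least 1.06-fold lower in duodenum. Apart from those that rose in Car6-/- mice, these counts lay near the shares over all genes.

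Partners of apical uptake include peptidases of the brush border, scaffold proteins and the sodium pump. Of 15 listed, 10 were on the array and 8 were tested. In duodenum 6 had higher and 2 lower means in Car6-/- mice, with a median of 0.60 and 0 past the threshold. At an unadjusted p under 0.05, 5 were higher, beside 11.4% of all genes in that direction. Anpep, the aminopeptidase N that is also among the enterocyte markers, differed by 1.44 (SE 0.30, adjusted p = 0.122), and Dpep1, a dipeptidase, by 1.08 (SE 0.27, adjusted p = 0.128). Atp1b1, the beta subunit of the sodium pump, differed by 0.48 (SE 0.13), and Slc9a3r1, a scaffold protein of the brush border, by 0.72 (SE 0.23). In duodenum over stomach 3 of the 8 rose and 3 fell in Car6-/- mice, beside 20.9% and 25.7% of all genes, and 2 rose and 3 fell in wild-type mice, beside 13.6% and 17.4%. Pdzk1, a scaffold of apical carriers, was at least 23.6-fold higher in Car6-/- and at least 10.6-fold higher in wild-type duodenum. It was not detected in Car6-/- stomach, so in that genotype it could only rise.

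Regulators of absorptive genes numbered 17, of which 15 were on the array and 12 were tested. In duodenum 11 had higher and 1 a lower mean in Car6-/- mice, with a median of 0.29, and 0 passed, while 5 had an unadjusted p under 0.05, beside 22.8% of all genes. Cdx2 differed by 0.69 (SE 0.22, adjusted p = 0.149) and Cdx1 by 1.14 (SE 0.37, adjusted p = 0.157). Both encode homeobox factors of the intestine, and both are enterocyte markers here. Klf4 had the lower mean (-0.57, SE 0.15, adjusted p = 0.131). In duodenum over stomach 7 of the 12 rose and 2 fell in Car6-/- mice, beside 20.9% and 25.7% of all genes. In wild-type mice 7 rose and 1 fell, beside 13.6% and 17.4%. Cdx1, Cdx2, Onecut2 and Hnf4g were not detected in Car6-/- stomach, so in that genotype they could only rise. Onecut2, a homeodomain factor, was at least 13.9-fold higher in Car6-/- and at least 10.4-fold higher in wild-type duodenum, and Hnf4a differed by 2.36 in Car6-/- and 1.78 in wild-type mice (SE 0.26).

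The genes nearest to each carrier were ranked by Pearson's r of normalised log2 values over the 18 arrays among 8948 genes, as a description. The arrays come from 3 tissues, so r includes the differences between tissues. Clrn3 was nearest to both Slc2a2 (r = 0.997) and Slc7a9 (r = 0.999), and Isx, an intestinal homeobox gene, was second for Slc2a2 (r = 0.997). Nat8 (r = 0.990) and Vdr, the vitamin D receptor (r = 0.986), were nearest to Slc5a1. Xdh, xanthine dehydrogenase, was nearest to Slc6a19 (r = 0.987), and Tmprss15, the enteropeptidase of the duodenal brush border, to Slc7a7 (r = 0.989). Cdh17, an intestinal cadherin, was nearest to Slc15a1 (r = 0.949). Slc7a8 had no neighbour as near, with Prag1 first at r = 0.883. It was also the only one of the 7 that did not pass the threshold between duodenum and stomach.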

How the data were processed

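Signals of 18 arrays were taken from the table the authors deposited, which holds a probe intensity without background subtraction and a detection p-value (deposited p) for each array. The authors also deposited log2 values, used as an alternative. No source used here names the authors' software. Probes were named through the platform annotation and RefSeq identifiers (23978 named, 1719 not). With limma 3.58.1 in R 4.3.3, neqc (offset 16) was run on the 6 arrays of each tissue, and on all 18 for comparisons between tissues. Probes detected (p under 0.01) on at least 3 arrays were kept, and a gene was represented by its brightest kept probe. Tests were lmFit and eBayes with Benjamini-Hochberg adjustment over all genes, threshold 0.05, tested on simulated data. The fit of 18 arrays treated the arrays as independent, so its p-values take no account of tissues that share animals. The series text gives 3 mice a genotype, and by that number the 3 tissues of a genotype came from the same mice. Within a tissue, p-values measure the spread between these samples. The number of arrays limits the precision.

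The 9 genes with a probe are described with all their probes. Of each list up to 4 genes with the smallest p are named, and of each carrier its nearest 3 patterns were ranked. The genes and lists were chosen with earlier results of these data known. Same-numbered Car6-/- and wild-type arrays deviated together in the submandibular gland (correlations 0.266, 0.520 and 0.235). The reported fits took the numbers as pairs in no tissue, and pairs entered only as the replicate block among the alternatives. Alternatives were background correction, scaling, filter, detection threshold, array weights, replicate block, choice of probe, deposited values, and leaving out each array.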

Additional observations from a re-analysis of the deposited data

How the results depend on the processing

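Of 789 values of single carriers under the alternatives, 756 kept their direction and their side of the threshold, 7 passed it newly, 7 no longer passed and 19 changed sign. Of the 7 carriers in duodenum, 0 passed between genotypes as reported, but 1 passed in the fit of all 18 arrays, 1 with array weights and 3 with the replicate block. For the duodenum and the submandibular gland as an interaction, 1 passed with array weights. The duodenal correlations of same-numbered arrays were 0.485, 0.0871 and 0.440, and those of stomach were negative (-0.311, -0.258 and -0.295). The reported fits took the numbers as pairs in no tissue. In the submandibular gland the block changed no carrier's call. Across all genes, the count between genotypes in duodenum was 1 as reported, 5 without background correction, 3 without the filter, 603 with all 18 arrays in 1 fit, 848 with array weights, 969 with the replicate block, 5 with the deposited values, 3 with the mean of all probes, 0 without both wild-type replicate 1 and Car6-/- replicate 3, and 0 to 62 when leaving out 1 array, the 62 without wild-type replicate 3. In stomach it was 0 as reported (limma, with 248 genes at an unadjusted p under 0.05), 1 in the fit of 18 and 0 when leaving out 1 array. In the submandibular gland it was 7 as reported, 2 with median scaling, 30 in the fit of 18, 23 with array weights and 0 to 4 when leaving out 1 array. For the interaction with stomach it was 2, against 4 with median scaling, 479 with array weights, 0 with the replicate block and 1 to 169 when leaving out 1 array. For that with the submandibular gland it was 20, against 5 with median scaling, 496 with array weights, 40 with the replicate block and 3 to 269 when leaving out 1 array. In wild-type mice, 5 to 6 carriers passed over stomach and 5 to 7 over submandibular gland when leaving out 1 array. With array weights the sign changed for Slc15a1 in duodenum (-0.21) and in its interactions with stomach (-0.13) and submandibular gland (-0.15), for Slc6a19 in stomach (0.39) and for Slc7a8 in the submandibular gland (0.13). Without both arrays Slc15a1 was at -0.59, and with the mean of all probes Slc7a8 in Car6-/- duodenum over stomach was at -0.035. When leaving out 1 array, Slc15a1 ran from -0.39 to 0.69 in duodenum, from -0.38 to 0.64 as an interaction with stomach and from -0.51 to 0.51 as that with the submandibular gland. Slc7a8 ran from -0.043 to 0.40 in duodenum (0.56 without both arrays), from -0.73 to 0.15 in the submandibular gland and from -0.083 to 0.20 in Car6-/- duodenum over stomach, and Slc6a19 ran from -0.41 to 0.40 in stomach. Slc7a8 in wild-type duodenum over stomach passed as lower with array weights (-1.04, adjusted p = 0.0352). The cause of these changes was not tested. Slc15a1 was detected on 4 of the 6 duodenal arrays, and Slc6a20a and Slc3a2 on none of the 18, so differences in the last 2 were not measurable here.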
